A study of Mus musculus with 17 samples.

Results

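The receptor machinery with which the proximal tubule takes up filtered protein was followed through 17 mouse RNA-seq libraries. It was defined by a fixed list of 7 genes, namely Lrp2, Cubn, Amn, Dab2, Clcn5, Ocrl and Lrpap1, and not by any measured value. All 7 were found among the 53313 gene IDs that the count files have in common, and all 7 passed the low-count filter in every comparison. The libraries came from wild-type mice of strain C57BL/6Rj as labelled, which the paper spells C57BL/6JRj. They comprised 4 non-senescent cultures of primary tubular epithelial cells (PTEC) taken on day 6, 4 senescent PTEC cultures that had received γ-irradiation with 10 Gy and were taken on day 16 of culture, and unsorted tissue from part of the right kidney, labelled whole kidney, of male mice aged 3, 12 and 24 months (n = 3 each). Irradiation and the later day of culture always came together and cannot be told apart.

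The cultures grew from sedimented tubular fragments of collagenase-digested kidneys, without a sort for a cell type, and the labels do not say whether they came from separate mice. Library depth was 26963442 to 32838856 counts in non-senescent and 29041073 to 35409144 in senescent PTEC. In kidneys it was 37311247 to 49471409 at 3 months, 54097073 to 59718029 at 12 months and 62761670 to 66894790 at 24 months. The label of proximal tubular cells was checked against 16 proximal tubule marker genes. Of these, 10 averaged 1 CPM or more (CPM, counts scaled to library size) in non-senescent and 3 in senescent PTEC, against 16 at every kidney age. Their summed level was 39.7, 43.8, 151 and 209 CPM in non-senescent cultures 1 to 4 and 18.6 to 38.5 CPM in senescent cultures, while the lowest kidney had 51931 CPM. The defining marker Slc34a1, the brush-border phosphate carrier, averaged 9.12 CPM in non-senescent and 0.0248 CPM in senescent PTEC.

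Protein that passes the glomerular filter is recovered by receptor-mediated endocytosis at the apical membrane of proximal tubule cells. Megalin (Lrp2), a giant member of the LDL receptor family, and cubilin (Cubn), which has no membrane anchor of its own and depends on amnionless (Amn) to reach the surface, bind albumin, vitamin carriers and many other ligands. The adaptor Dab2 links the tail of megalin to clathrin, the chaperone RAP (Lrpap1) keeps newly made receptors from binding ligand in the endoplasmic reticulum, the exchanger ClC-5 (Clcn5) helps to acidify endosomes, and the inositol phosphatase Ocrl acts on membrane lipids along the route. Loss of ClC-5 or OCRL in people causes proteinuria of the tubular type, known as Dent disease and Lowe syndrome.

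By the GENCODE annotation of GRCm38, the receptors Lrp2 (ENSMUSG00000027070.14, chr2:69424340-69586065, minus strand) and Cubn (ENSMUSG00000026726.10, chr2:13276338-13491813, minus strand) are long genes with 16.7 and 14.9 kb of exonic sequence. Amn (ENSMUSG00000021278.7, chr12:111271095-111276426, plus strand) is the shortest of the group at 1.84 kb. Dab2 (ENSMUSG00000022150.16, chr15:6299788-6440712, plus strand) has 7.34 kb and Lrpap1 (ENSMUSG00000029103.16, chr5:35091501-35105766, minus strand) has 4.12 kb. The X-linked genes Clcn5 (ENSMUSG00000004317.14, chrX:7153810-7319358, minus strand) and Ocrl (ENSMUSG00000001173.15, chrX:47912387-47965868, plus strand) have 11.5 and 9.49 kb. Cubn shares 368 exonic bases with Gm13270 on the other strand, which had at most 33 counts in any library. No other overlapping gene exceeded 1 count.

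Promoter windows of RefSeq (GRCm38.p6), from 250 bases before to 50 after a transcript start, were read for all 7 genes, with 2 starts each for Dab2 and Clcn5. They are shown 5' to 3' for the receptor pair, for Amn and for the genes whose culture groups did not overlap, because these carry the results. Capitals mark every match, on either strand, to the E-box CACGTG, the GC box GGGCGG, the HNF1 half-site GTTAAT, the CCAAT box CCAAT or the TATA box TATAAA. None of the printed matches overlap.
Lrp2 (chr2:69585980-69586279, minus strand): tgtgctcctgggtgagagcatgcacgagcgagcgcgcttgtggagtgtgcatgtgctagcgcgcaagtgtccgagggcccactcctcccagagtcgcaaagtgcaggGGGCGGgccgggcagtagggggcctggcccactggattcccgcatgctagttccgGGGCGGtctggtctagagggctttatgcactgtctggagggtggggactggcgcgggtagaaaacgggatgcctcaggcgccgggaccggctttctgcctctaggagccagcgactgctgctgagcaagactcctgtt
Cubn (chr2:13491827-13492126, minus strand): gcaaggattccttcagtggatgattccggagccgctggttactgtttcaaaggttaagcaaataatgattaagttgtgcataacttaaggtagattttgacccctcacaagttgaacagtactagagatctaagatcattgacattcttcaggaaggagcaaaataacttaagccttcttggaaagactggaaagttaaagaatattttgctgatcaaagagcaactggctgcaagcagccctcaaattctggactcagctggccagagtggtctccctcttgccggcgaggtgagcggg
Amn (chr12:111270846-111271145, plus strand): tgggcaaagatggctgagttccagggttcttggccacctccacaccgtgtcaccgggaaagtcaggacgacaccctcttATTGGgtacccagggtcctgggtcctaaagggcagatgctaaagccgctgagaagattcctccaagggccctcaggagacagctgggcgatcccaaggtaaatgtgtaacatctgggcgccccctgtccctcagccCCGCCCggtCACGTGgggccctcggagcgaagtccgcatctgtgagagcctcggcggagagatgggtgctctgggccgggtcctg
Dab2, downstream start (chr15:6386498-6386797, plus strand): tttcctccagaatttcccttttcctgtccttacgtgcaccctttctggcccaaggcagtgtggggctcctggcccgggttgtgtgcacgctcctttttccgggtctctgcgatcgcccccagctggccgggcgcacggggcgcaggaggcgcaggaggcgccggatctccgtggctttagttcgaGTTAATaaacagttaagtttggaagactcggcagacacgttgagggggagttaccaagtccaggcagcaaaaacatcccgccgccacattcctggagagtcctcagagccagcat
Lrpap1 (chr5:35105650-35105949, minus strand): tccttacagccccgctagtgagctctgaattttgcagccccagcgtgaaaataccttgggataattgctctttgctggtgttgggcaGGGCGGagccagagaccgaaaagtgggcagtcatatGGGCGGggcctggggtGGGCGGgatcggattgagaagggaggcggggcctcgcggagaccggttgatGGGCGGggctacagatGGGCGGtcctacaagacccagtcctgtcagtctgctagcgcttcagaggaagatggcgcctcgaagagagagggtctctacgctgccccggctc
The Lrpap1 window held 5 GC boxes, the Lrp2 window 2, and the Amn window 1 GC box, 1 CCAAT box and 1 E-box. The downstream Dab2 window held 1 HNF1 half-site, whereas the Cubn window and the upstream Dab2 window (chr15:6299539-6299838) held none of these letters. Among all 32851 promoter windows of the same length, 35.7% held a GC box, 37.4% a CCAAT box, 7.15% an E-box, 7.10% an HNF1 half-site and 13.6% a TATA box. GC content differed as well, at 65.0% in Lrp2, 62.3% in Amn, 61.3% in Lrpap1, 59.3% in the downstream Dab2 window and 44.3% in Cubn, against a median of 52.7% over all windows. These matches describe the windows only.

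Per kilobase of exonic sequence, Lrpap1, Amn and Lrp2 had the highest levels of the 7 genes in the young kidney. Mean levels at 3 months were 155 ± 29.0 CPM per kb (SD, n = 3) for Lrpap1, 121 ± 19.2 for Amn, 97.5 ± 39.9 for Lrp2, 35.9 ± 14.4 for Dab2, 26.0 ± 12.1 for Cubn, 6.75 ± 2.65 for Clcn5 and 1.07 ± 0.122 for Ocrl. In this order the ranges of the first 3 genes overlapped from neighbour to neighbour, as did those of Dab2 and Cubn, and the other neighbouring pairs were separate. Lrpap1, Amn and Lrp2 stood at the 97.5, 96.8 and 96.1 percentile of the 14537 tested protein-coding genes, and Ocrl at the 30.4 percentile.

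The order was different in culture. Non-senescent PTEC had 31.0 ± 19.2 CPM per kb of Amn (SD, n = 4), 26.7 ± 4.20 of Dab2, 26.3 ± 8.29 of Clcn5, 13.1 ± 2.66 of Lrpap1, 12.1 ± 13.5 of Lrp2, 4.66 ± 1.35 of Ocrl and 1.15 ± 1.12 of Cubn. Senescent PTEC had 31.2 ± 9.90 of Clcn5, 23.4 ± 2.48 of Lrpap1, 13.6 ± 5.76 of Lrp2, 11.2 ± 2.10 of Dab2, 5.97 ± 0.800 of Ocrl, 1.42 ± 0.751 of Amn and 0.507 ± 0.192 of Cubn. Amn thus stood first by mean in non-senescent and sixth in senescent cultures. In the former its range overlapped those of Dab2, Clcn5, Lrpap1 and Lrp2, and in cultures 1 and 2 it lay below Dab2 and Clcn5. Of the summed CPM per kb over the 7 genes, Amn made up 19.7, 14.8, 48.9 and 22.3% in non-senescent cultures 1 to 4 and 1.23, 1.42, 3.47 and 0.852% in senescent cultures, against 19.4 to 37.5% in the 9 kidneys. Cubn made up 0.419 to 1.83% of that sum in the 8 cultures and 4.21 to 7.87% in the kidneys.

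**Figure D1:**
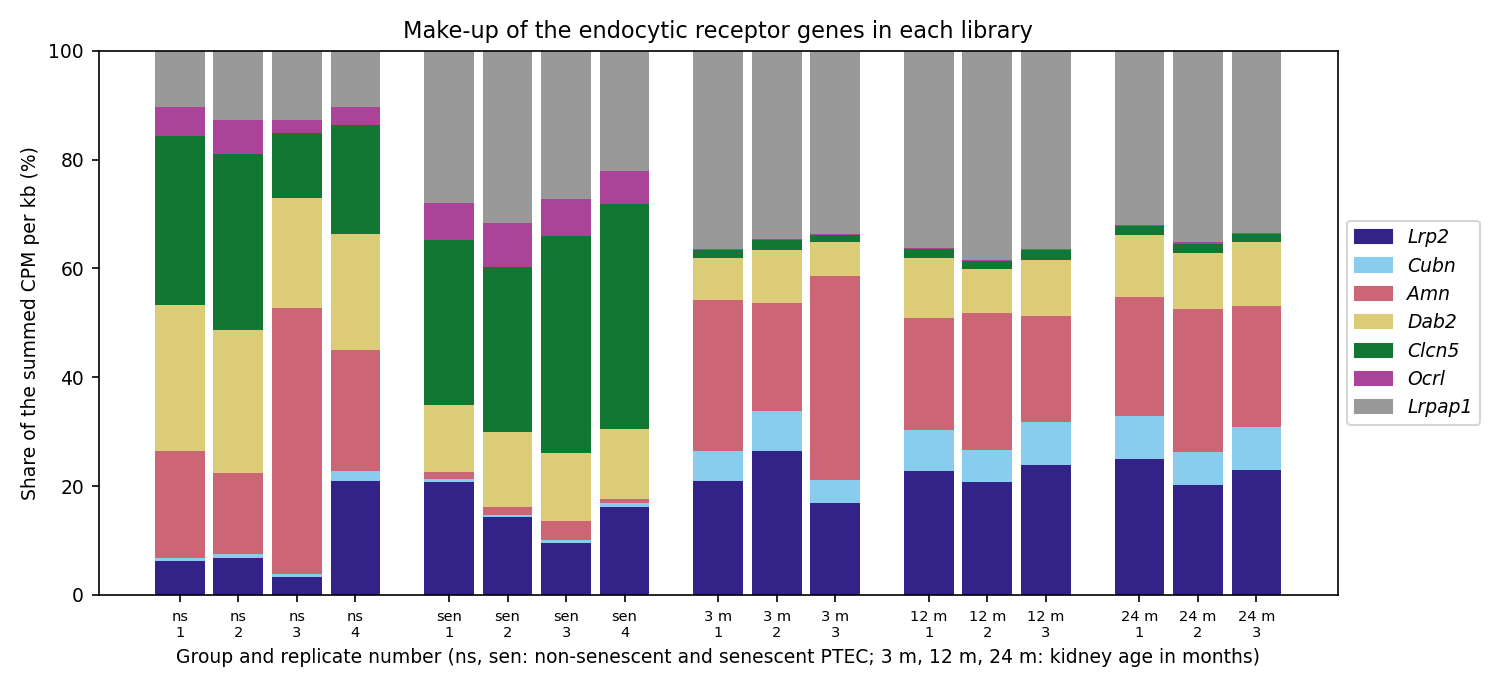
Share of each endocytic receptor gene in the summed CPM per kb of the 7 genes (vertical axis, percent), with 1 bar per library and the replicate number below it. The Amn segment is 14.8 to 48.9% in non-senescent PTEC and 0.852 to 3.47% in senescent PTEC, and 19.4 to 37.5% in the kidneys.

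The first comparison was between senescent and non-senescent PTEC. Amn and Dab2 were lower in senescent PTEC, Lrpap1 was higher, and the remaining 4 genes did not pass the test. Calls required an adjusted p below 0.05 in edgeR's quasi-likelihood test (Benjamini-Hochberg over all genes tested) together with a log2 fold change beyond 0.5 in either direction. The 2 genes called lower and the 1 called higher have to be read against a background of 19.7% of all 15434 tested genes called lower and 20.1% called higher, 39.8% in all. The members' median log2 fold change was 0.17, and that of all tested genes was -0.0020.

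Among the receptor genes Amn was called, and Lrp2 and Cubn were not. Amn, the membrane partner of cubilin, was at 35.2, 25.3, 104 and 63.3 CPM in non-senescent cultures 1 to 4 and at 2.09, 1.94, 4.67 and 1.73 CPM in the senescent ones. The lowest non-senescent culture thus lay above the highest senescent culture by a wide margin. The fall was 21.7-fold (log2 fold change -4.44 ± 0.522 SE, 95% confidence interval -5.60 to -3.27, adjusted p = 0.000171), the largest among the 7 genes. It was called in each of 8 fits that left out 1 culture, with log2 fold changes between -4.88 and -3.97.

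Cubn was at 8.12, 11.3, 7.26 and 42.3 CPM in non-senescent and at 7.95, 5.33, 5.54 and 11.5 CPM in senescent cultures. Non-senescent culture 4 stood far above the other 3, which overlapped the senescent group. The log2 fold change of -1.19 ± 0.558 SE (95% confidence interval -2.43 to 0.06, adjusted p = 0.113) was not called. Same-numbered cultures deviated together across the transcriptome, and with the replicate number as a block Cubn was called lower, with a log2 fold change of -0.85 and an adjusted p of 0.0370. Within the 4 pairs of same-numbered cultures the senescent one had 0.979, 0.472, 0.763 and 0.272 times the Cubn level of its partner. Without non-senescent culture 4 the log2 fold change was -0.24 and the gene was not called (adjusted p = 0.560).

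Lrp2 was at 100, 105, 65.5 and 539 CPM in non-senescent and at 318, 176, 117 and 297 CPM in senescent cultures. The groups overlapped only because of non-senescent culture 4, the highest of all 8. With it the log2 fold change was 0.17 ± 0.630 SE (95% confidence interval -1.24 to 1.57, adjusted p = 0.853). Without it Lrp2 was called higher in senescent PTEC, with a log2 fold change of 1.33 and an adjusted p of 0.0183, so that this single library decided the call. In pairs 1 to 4 the senescent culture had 3.18, 1.68, 1.79 and 0.550 times the level of its partner. Markers of proximal tubule (209 CPM summed), loop of Henle (54.3 CPM) and distal tubule and collecting duct (51.3 CPM) were also highest in non-senescent culture 4, while culture 3, with the second highest proximal sum (151 CPM), had the lowest Lrp2 and Cubn of the non-senescent group. The part of these markers in the high Lrp2 and Cubn values was not tested.

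The adaptor Dab2 was at 192, 179, 173 and 241 CPM in non-senescent and at 83.2, 75.4, 67.1 and 103 CPM in senescent cultures. The groups did not overlap, and the ratio within the 4 pairs was nearly constant at 0.388 to 0.434. Dab2 fell 2.39-fold (log2 fold change -1.25 ± 0.169 SE, 95% confidence interval -1.63 to -0.88, adjusted p = 0.000372).

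The chaperone Lrpap1 went the other way. It was at 41.7, 48.5, 60.7 and 65.4 CPM in non-senescent and at 106, 96.8, 82.1 and 99.8 CPM in senescent cultures, again without overlap. It rose 1.78-fold (log2 fold change 0.83 ± 0.164 SE, 95% confidence interval 0.47 to 1.20, adjusted p = 0.00292), and the senescent culture was higher in all 4 pairs. Both Dab2 and Lrpap1 were called in each of the 8 fits that left out 1 culture. The share of all tested genes whose culture groups were separated like those of Amn, Dab2 and Lrpap1 was not computed.

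The endosomal genes did not pass the test. Clcn5 was at 345, 345, 159 and 356 CPM in non-senescent and at 320, 257, 334 and 520 CPM in senescent cultures, with a log2 fold change of 0.25 ± 0.289 SE (95% confidence interval -0.40 to 0.89, adjusted p = 0.515). Ocrl was at 48.4, 54.5, 25.5 and 48.7 CPM in non-senescent and at 59.5, 56.5, 46.3 and 64.3 CPM in senescent cultures, with a log2 fold change of 0.36 ± 0.223 SE (95% confidence interval -0.14 to 0.86, adjusted p = 0.223). The senescent culture had more Ocrl in 4 of 4 same-numbered pairs (ratios 1.23, 1.04, 1.82 and 1.32), and with the replicate block the log2 fold change was 0.40 at an adjusted p of 0.0413, short of the size required. Both genes were lowest in non-senescent culture 3, the culture in which Amn was highest. That library also stood apart in its gene-length slope, the change in log2 CPM per doubling of exonic length relative to the mean of the 8 cultures, which was -0.357 against -0.110 to 0.129 in the other 7. With a length trend removed from each library, Amn (log2 fold change -4.36), Dab2 (-1.35) and Lrpap1 (0.79) were still called in the same direction, and Cubn was called lower (-1.31, adjusted p = 0.0406).

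Marker genes of other cell types were measured in the same cultures, where 19.7% of all tested genes were called lower and 20.1% higher. Of 16 proximal tubule markers, 7 passed the low-count filter and 6 of these were lower in senescent PTEC, from Acsm2 (9.63 ± 9.23 against 0.114 ± 0.101 CPM, adjusted p = 0.000980) to Aqp1, the water channel, which did not pass (28.6 ± 17.9 against 20.4 ± 6.60 CPM, adjusted p = 0.446). Without the low-count filter 10 of the 16 were called lower, and with DESeq2 11. Of 10 fibroblast and myofibroblast markers, 9 were tested and 7 were higher, led by Acta2, smooth muscle actin (log2 fold change 3.52, adjusted p = 8.84e-05); Pdgfra was lowest in the list and not called (0.67, with the replicate block 0.70 and called at an adjusted p of 0.0399). Without senescent culture 2, and likewise without culture 4, 4 of these markers were called. Their summed level was 205 to 342 CPM in non-senescent and 1032 to 2219 CPM in senescent PTEC. Macrophage markers summed to 63.8 to 98.9 and 37.2 to 109 CPM, endothelial markers to 76.8 to 228 and 58.0 to 226 CPM, and podocyte markers to 93.2 to 208 and 218 to 475 CPM. Loop of Henle markers summed to 19.3 to 54.3 and 2.28 to 5.19 CPM, and those of distal tubule and collecting duct to 11.7 to 51.3 and 4.25 to 14.2 CPM. The part of these shifts in the changes of Amn, Dab2 and Lrpap1 was not tested, and fewer cells of a type and less RNA per cell cannot be told apart in bulk RNA.

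**Figure D2:**
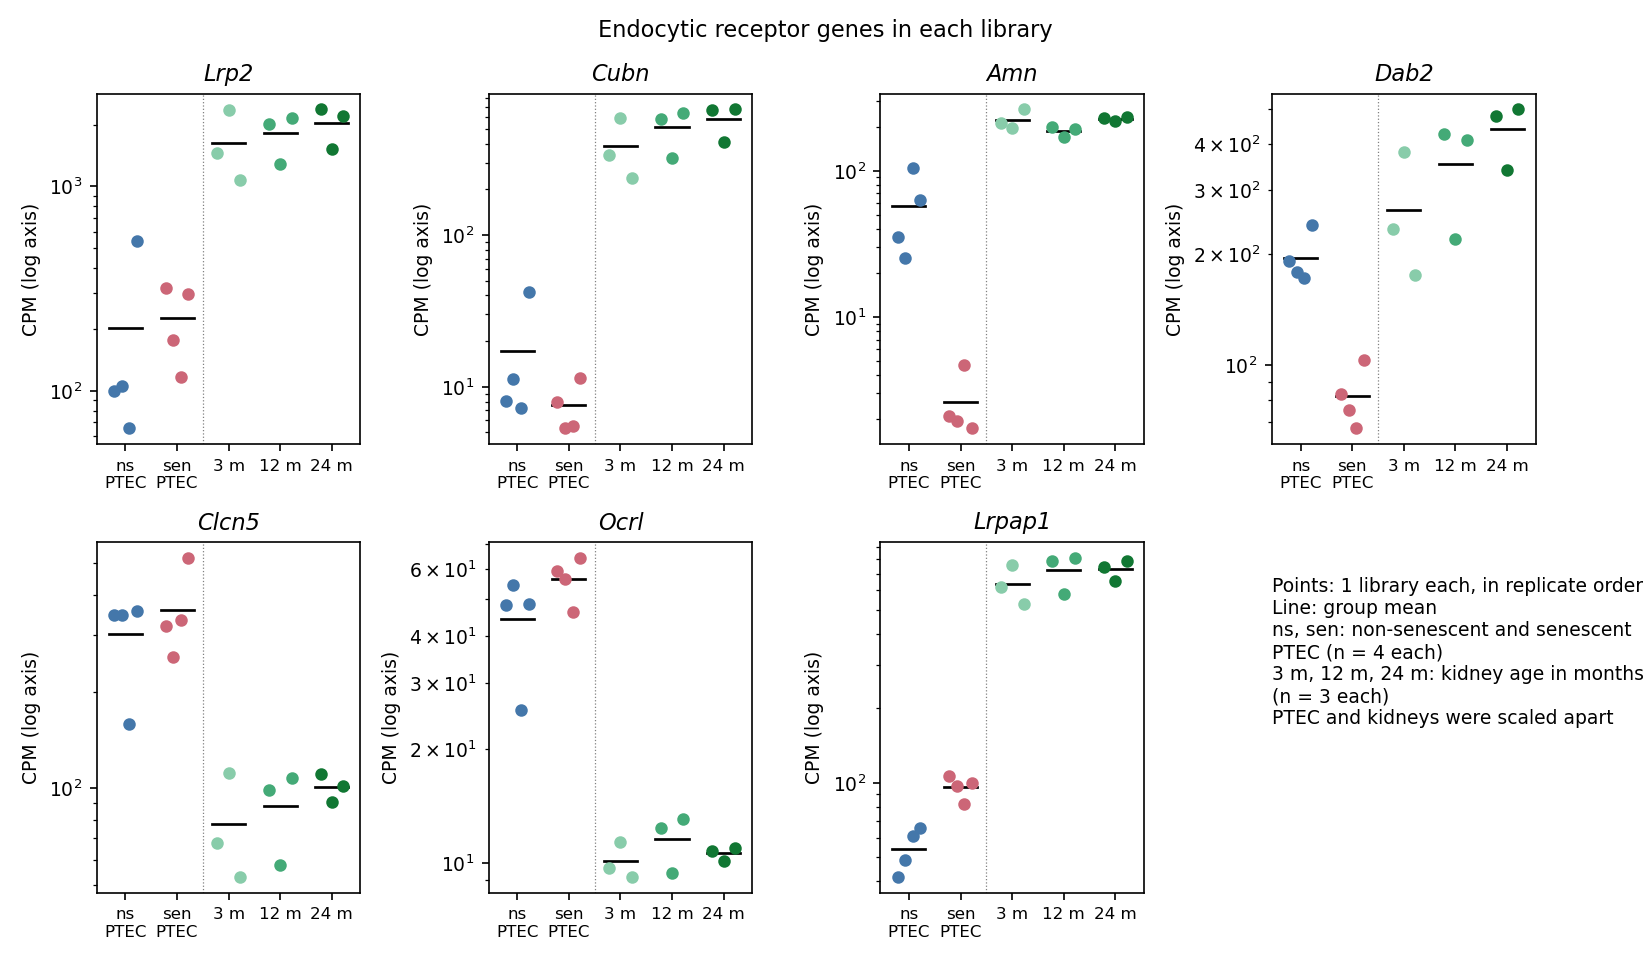
CPM of each endocytic receptor gene (vertical log axis) in non-senescent (ns) and senescent (sen) PTEC and in kidneys of 3, 12 and 24 months, with 1 point per library in replicate order and a line at the group mean. Amn and Dab2 are lower and Lrpap1 is higher in every senescent culture than in any non-senescent one, while non-senescent culture 4 stands out in Lrp2 and Cubn. The share of all tested genes separated in this way was not computed.

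The general uptake route was examined with 3 further lists. Of 15 clathrin coat and adaptor genes, 2 were lower in senescent PTEC and none higher, with a list median of -0.07 on the log2 scale. These counts and those of the next 2 lists stand beside the 39.8% of all tested genes that were called. The 2 were the AP-2 adaptor subunits Ap2a2 (log2 fold change -0.59, adjusted p = 0.00424) and Ap2m1 (-0.62, adjusted p = 0.0135). The extremes of this list, Cltb (0.41) and Ap2s1 (-0.67), were not called, although Ap2s1 lay close to the threshold (adjusted p = 0.0516). Ap2s1 was called lower with the replicate block (-0.62, adjusted p = 0.00368), with the length trend removed (-0.53, 0.0135) and without a low-count filter (-0.68, 0.0328). DESeq2 with the study's settings (-0.69, 0.0481) and its size factors in edgeR (-0.68, 0.0472) gave this call as well. So did leaving out non-senescent culture 2 or 4 or senescent culture 3. Without non-senescent culture 3, 1 gene of this list was called higher and 1 lower, and without non-senescent culture 4, 1 was higher. Clathrin heavy chain itself, Cltc, was at 702 ± 212 and 793 ± 127 CPM.

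Of 17 endosome sorting genes, 2 were higher and none lower (median -0.03). These were Rab38, a small GTPase of lysosome-related organelles, which rose from 2.07 ± 0.845 to 5.32 ± 1.31 CPM (log2 fold change 1.36, adjusted p = 0.00712), and the early endosome GTPase Rab5b (0.81, adjusted p = 0.000835). The lowest member, the recycling GTPase Rab11a, had an adjusted p of 0.0233 and a log2 fold change of -0.45. It was called lower without non-senescent culture 4 (-0.52) and without senescent culture 3 (-0.50). Without non-senescent culture 2 or 4, or without senescent culture 3, 4 endosome sorting genes were higher. Of 16 vesicle acidification genes, 3 were higher and none lower (median 0.18), namely the proton pump subunit Atp6v1e1 (0.66), the accessory subunit Atp6ap1 (0.59) and the exchanger Clcn4 (0.58), a relative of Clcn5. Atp6v1b2 was lowest at -0.54 and not called, but was called lower without non-senescent culture 2 (-0.76, adjusted p = 0.0109). No gene of this list was called higher at a threshold of 1.

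Relatives of megalin were measured too. Lrp1, a broad scavenger receptor and, like megalin, a client of RAP, rose from 39.1 ± 18.5 to 196 ± 80.4 CPM in senescent PTEC (log2 fold change 2.32 ± 0.458 SE, adjusted p = 0.00294). Lrp4 rose from 5.74 ± 3.48 to 14.7 ± 2.10 CPM (1.36, adjusted p = 0.0113), whereas Lrp8 fell from 80.0 ± 14.2 to 29.6 ± 3.75 CPM (-1.43, adjusted p = 0.000152).

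**Figure D3:**
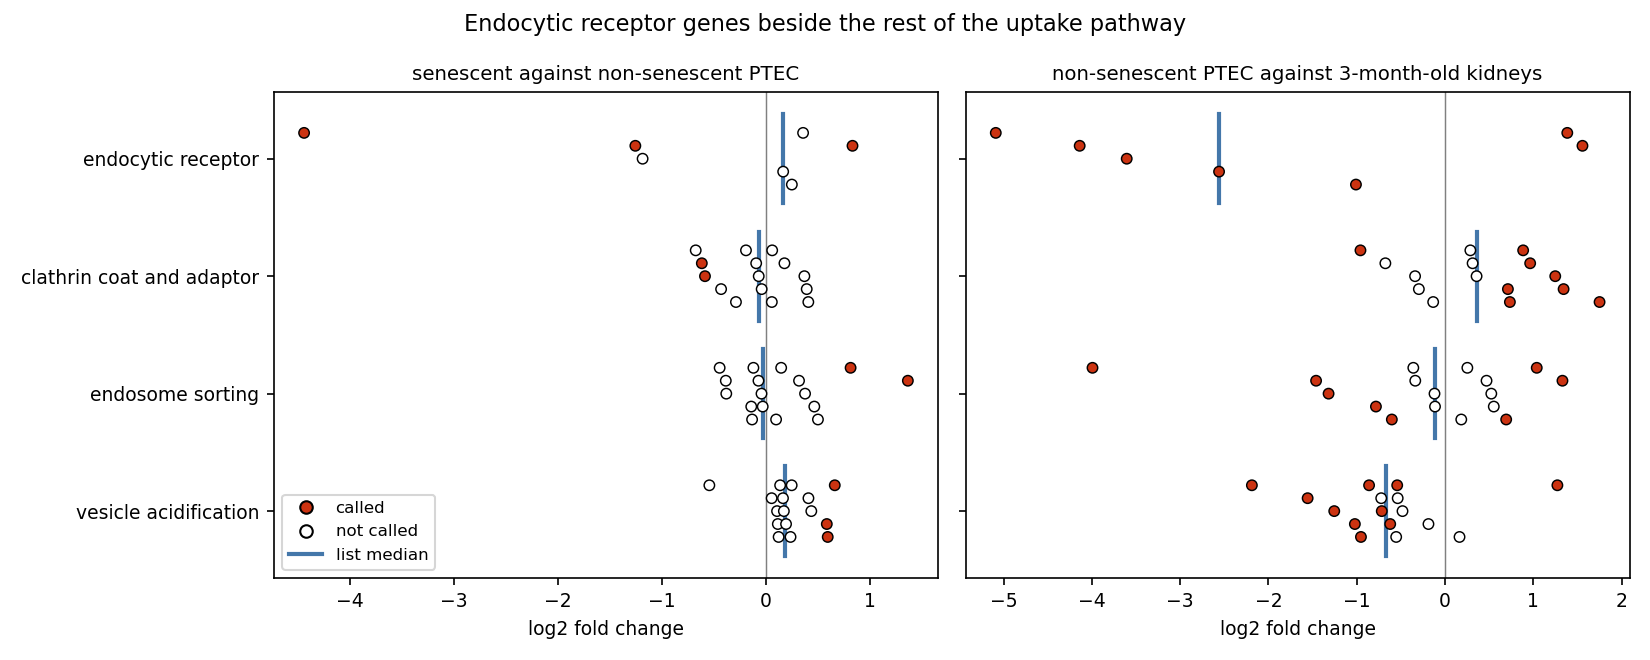
log2 fold change (horizontal axis) of each tested gene in the endocytic receptor list and in 3 further lists of the uptake pathway, for senescent against non-senescent PTEC (left) and non-senescent PTEC against 3-month-old kidneys (right). Filled points were called and blue lines mark list medians; in the left panel Amn lies at -4.44, beyond every gene of the other lists.

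In the kidneys no endocytic receptor gene passed the test between ages. In the comparison of 24- with 3-month-old kidneys 0 of 7 were called, where 2.34% of 17067 tested genes were. At 12 against 3 months it was again 0 of 7 beside 2.58%, and at 24 against 12 months 0 of 7 beside 1.33%. At an unadjusted p under 0.05 the count was 0 in each of the 3 age comparisons, and DESeq2 with the study's settings also called 0. The comparisons of 12 and 24 with 3 months share the 3-month libraries. These libraries also had lower depth than all older ones, and their count files held 54146 gene IDs against 55401 at 12 and 24 months. Age against 3 months cannot be told apart from these differences.

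Lrp2 was at 1448, 2367 and 1072 CPM at 3 months, at 2007, 1276 and 2164 CPM at 12 months and at 2370, 1521 and 2203 CPM at 24 months. Each age spanned much of the same range. The log2 fold change at 24 against 3 months was 0.32 ± 0.320 SE (95% confidence interval -0.41 to 1.04, adjusted p = 0.565). It was 0.70 without kidney 2 and 0.089 without kidney 3 of 3 months. Cubn was at 336, 589 and 239 CPM, at 584, 320 and 636 CPM, and at 665, 409 and 673 CPM at the 3 ages, with a log2 fold change of 0.59 ± 0.375 SE (95% confidence interval -0.26 to 1.44, adjusted p = 0.402) between the oldest and the youngest. Without kidney 2 of 3 months the log2 fold changes were 1.02 for Cubn, 1.10 for Dab2, 0.75 for Clcn5, 0.36 for Lrpap1 and 0.17 for Ocrl, and without kidney 3 of 3 months they were 0.33, 0.51, 0.17, 0.078 and 0.0046, with no call in either case.

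Amn spanned a narrower range than Lrp2 and Cubn. It was at 212, 195 and 263 CPM at 3 months, 200, 171 and 194 CPM at 12 months and 229, 220 and 234 CPM at 24 months, with a log2 fold change of 0.03 ± 0.150 SE (95% confidence interval -0.31 to 0.36, adjusted p = 0.924) at 24 against 3 months. All 3 kidneys of 24 months lay above all 3 of 12 months, but that difference was not called (log2 fold change 0.27 ± 0.150 SE, adjusted p = 0.427). The other genes of the list overlapped between these ages, and the share of all tested genes so separated was not computed.

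Dab2 came closest to a change with age. It was at 234, 381 and 176 CPM at 3 months, 427, 221 and 411 CPM at 12 months and 478, 341 and 497 CPM at 24 months. The oldest group overlapped the youngest only through its lowest kidney. The log2 fold change was 0.73 ± 0.336 SE (95% confidence interval -0.03 to 1.49, adjusted p = 0.286).

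Clcn5 was at 67.6, 111 and 53.1 CPM, at 98.8, 57.9 and 108 CPM, and at 111, 90.6 and 101 CPM (log2 fold change at 24 against 3 months 0.38, adjusted p = 0.480). Ocrl was at 9.20 to 13.1 CPM over all 9 kidneys (0.07, adjusted p = 0.806), and Lrpap1 at 526 to 812 CPM (0.20, adjusted p = 0.542). Between 12 and 3 months the log2 fold changes of the 7 genes ranged from -0.25 (Amn) to 0.42 (Dab2), with adjusted p-values of 0.494 to 0.884. Between 24 and 12 months they ranged from -0.13 (Ocrl) to 0.31 (Dab2), with adjusted p-values of 0.427 to 0.988. None of these differences passed the test. The replicate numbers of the 12- and 24-month-old kidneys deviated together (r = 0.384, 0.557 and 0.172), although kidney 3 of each age correlated best with kidney 1 of the other. In 3 of 3 same-numbered pairs Lrp2, Cubn, Amn and Dab2 were higher at 24 months, with ratios from 1.02 (Lrp2) to 1.54 (Dab2). Clcn5 was higher in 2 pairs, and Ocrl and Lrpap1 in 1. Lrp2, Cubn and Dab2 went up and down together over the 9 kidneys, so they are not separate observations. The share of all tested genes higher in every pair was not computed. With these 6 kidneys alone and the replicate number as a block, chosen after seeing the data, 0 of 7 were called and adjusted p-values were 0.0786 (Dab2), 0.108 (Amn) and 0.233 or more for the others, while the number of calls over all genes went from 227 to 2200.

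**Figure D4:**
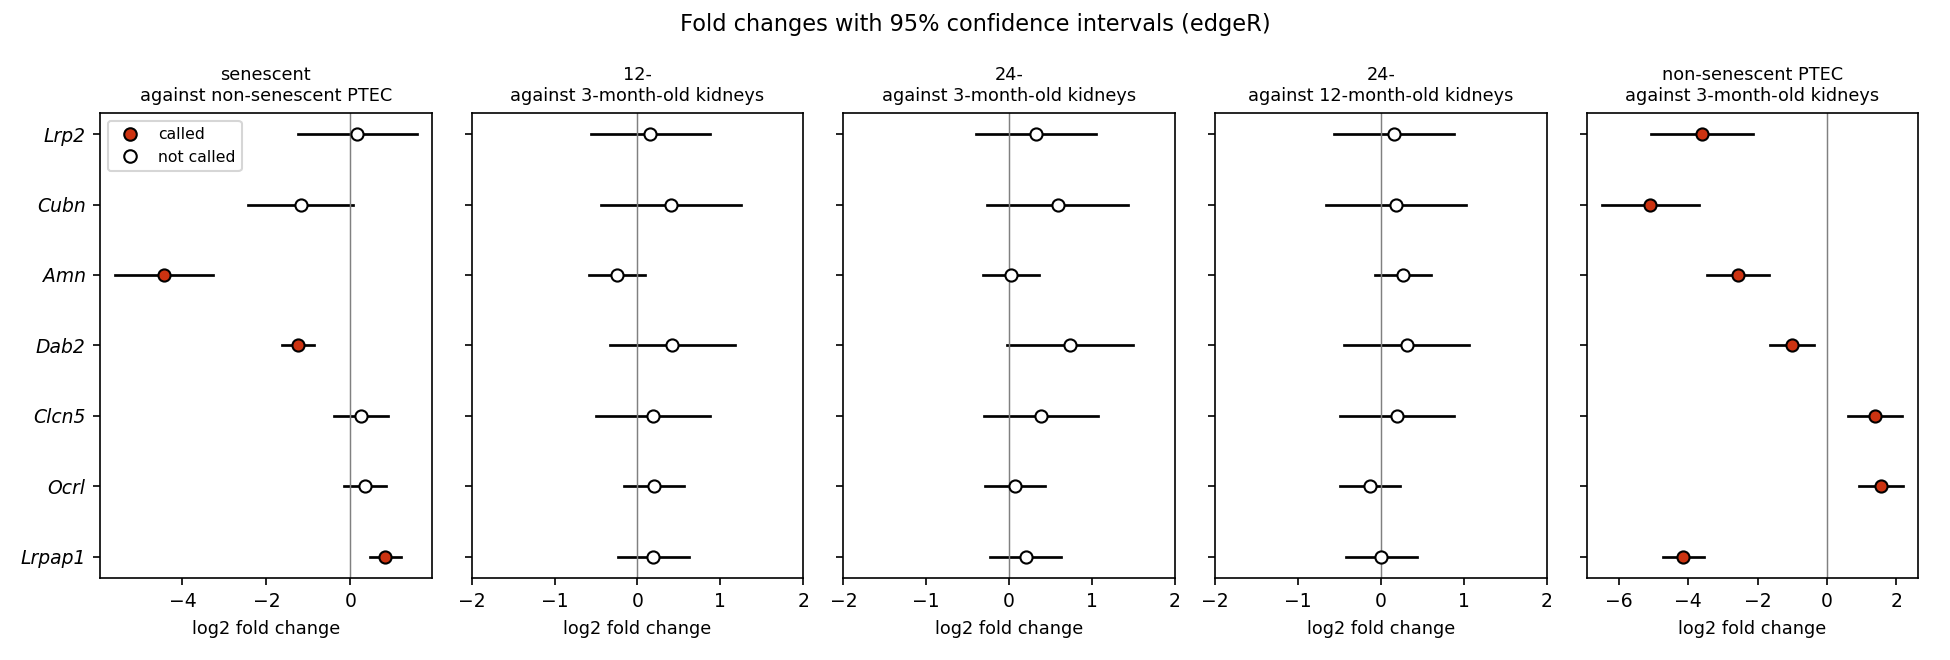
log2 fold change (horizontal axis) of each endocytic receptor gene with its 95% confidence interval in the 5 comparisons; filled points were called, and the horizontal scale differs between PTEC and kidney panels. All kidney age intervals include 0, whereas Amn, Dab2 and Lrpap1 are off 0 in PTEC and all 7 genes are off 0 between culture and kidney.

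In the lists of the uptake route 1 gene was called at 24 against 3 months, where 2.34% of all tested genes were. None was called among 15 clathrin coat and adaptor genes (Ap2a1 0.58 to Ap2s1 -0.35) or 17 endosome sorting genes (Ehd1 0.66 to Rab38 -0.43). At an unadjusted p under 0.05 these lists held 2 and 1 genes, and DESeq2 called 0 in each. List medians were 0.35 and 0.04. Lrp1 had a log2 fold change of 0.84 (adjusted p = 0.154) and was not called. Among 16 vesicle acidification genes (median 0.02; lowest Atp6v1f, -0.71) only Atp6v0c, the proton-conducting subunit of the pump, was called, at 68.1 ± 17.3 CPM at 3 and 192 ± 25.5 CPM at 24 months (log2 fold change 1.50 ± 0.251 SE, adjusted p = 0.0200); this call was lost in 4 of the 6 fits that left out 1 kidney. These left out kidney 1 or 3 of 3 months or kidney 1 or 3 of 24 months (log2 fold change 1.33 to 1.49, adjusted p 0.0601 to 0.117). With the replicate block the log2 fold change was 1.49 and the call was lost as well (adjusted p = 0.0841). Its annotated processed pseudogenes Atp6v0c-ps1 and Atp6v0c-ps2 had 0 to 4 and 56 to 131 counts in the kidneys, against 2277 to 13578 for Atp6v0c, and how reads that match both were assigned is not given in the sources used here. At 12 against 3 and at 24 against 12 months edgeR called none of the genes in these 3 lists, beside 2.58 and 1.33% of all tested genes. DESeq2 called 1 and 0, and an unadjusted p under 0.05 was reached by 1 and 2.

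Across the 9 kidneys most of the genes went up and down together from library to library. Kidney 2 of 3 months was the highest and kidney 3 the lowest of its age for Lrp2, Cubn, Dab2, Clcn5, Ocrl and Lrpap1, and kidney 2 of 12 months and kidney 2 of 24 months were the lowest of their ages for all 7 genes. Over the 9 libraries the log2 CPM of Lrp2 and Cubn correlated with Pearson's r = 0.980 and Spearman's rho = 0.917 (exact permutation p = 0.000149 and 0.00131, 0.000897 for r after adjustment over the 21 pairs of genes). Without the 2 kidneys farthest from the median Lrp2 level r was 0.950, and within ages it was 0.995 (permutation p = 0.00926). These permutations treat the kidneys as independent, although same-numbered ones of 12 and 24 months deviated together. The 15 pairs without Amn had r between 0.774 and 0.980, and the 6 pairs with Amn between -0.30 and -0.07. The pairs with Amn thus had lower r than those among the 6 longer genes. Such values were common outside the list. Of 8768 tested genes averaging 10 CPM or more, ranked by r with Lrp2, Cubn stood at rank 84 and Clcn5 at 474. Lrpap1 stood at 541 and Dab2 at 935, and Ocrl (r = 0.805) ranked below these. Many other genes thus followed Lrp2 as closely, and these correlations do not set the listed genes apart.

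The same libraries were ordered by their gene-length slope, computed over the 14537 tested protein-coding genes, the endocytic receptor genes included. It was -0.0715, 0.125 and -0.214 in kidneys 1 to 3 of 3 months, 0.0505, -0.122 and 0.0693 at 12 months, and 0.123, -0.0177 and 0.0578 at 24 months. Its correlation with Lrp2 was r = 0.985 and rho = 0.967 (exact permutation p = 1.10e-05 and 0.000165, 3.86e-05 for r after adjustment over 7 genes), 0.967 without the 2 farthest kidneys and 0.983 within ages (permutation p = 0.00463, the smallest that permutation within ages can give). Clcn5 (r = 0.975), Cubn (0.961), Lrpap1 (0.936), Dab2 (0.932) and Ocrl (0.778) followed it too, but not Amn (-0.21). Among all 17067 tested genes 10.3% reached an r of 0.9 with the slope, and 17.6% among those with more than 4 kb of exons. An r of 0.7 was reached by 24.1 and 37.1%. With the length trend removed, the log2 fold changes at 24 against 3 months were 0.13 for Lrp2, 0.41 for Cubn, 0.63 for Dab2 and 0.18 for Amn, and none was called.

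The proximal tubule markers summed to 59069 to 60927 CPM at 3 months, 62934 to 70437 at 12 months and 51931 to 57604 at 24 months. Of that sum Kap, an androgen-regulated protein, made up 35576 CPM at 3 and 25080 CPM at 24 months (not called, adjusted p = 0.117). Between these ages 3 of the 16 markers were called, beside 2.34% of all tested genes. All 3 were higher at 24 months, namely Slc5a2 (log2 fold change 1.88), Slc5a12 (1.56) and Miox (0.74). The uncalled markers went both ways, from Kap (-0.50) to Slc22a8 (0.95). Over the 9 kidneys the sum correlated with Lrp2 at r = 0.0389 and rho = -0.28 (exact permutation p = 0.922 and 0.463, and 0.978 and 0.751 after adjustment over 7 genes), and with the 7 genes at r between -0.54 (Amn) and 0.54 (Ocrl). Within ages r was 0.488 for Lrp2 and 0.249 (Amn) to 0.714 (Ocrl) over the 7 genes (permutation p from 0.0602 to 0.454, 0.188 to 0.454 after adjustment). The pooled and the within-age values were not compared by a test. Macrophage markers summed to 93.4 to 146 CPM at 3 months and 164 to 205 CPM at 24 months, and fibroblast markers to 190 to 229 and 243 to 312 CPM.

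**Figure D5:**
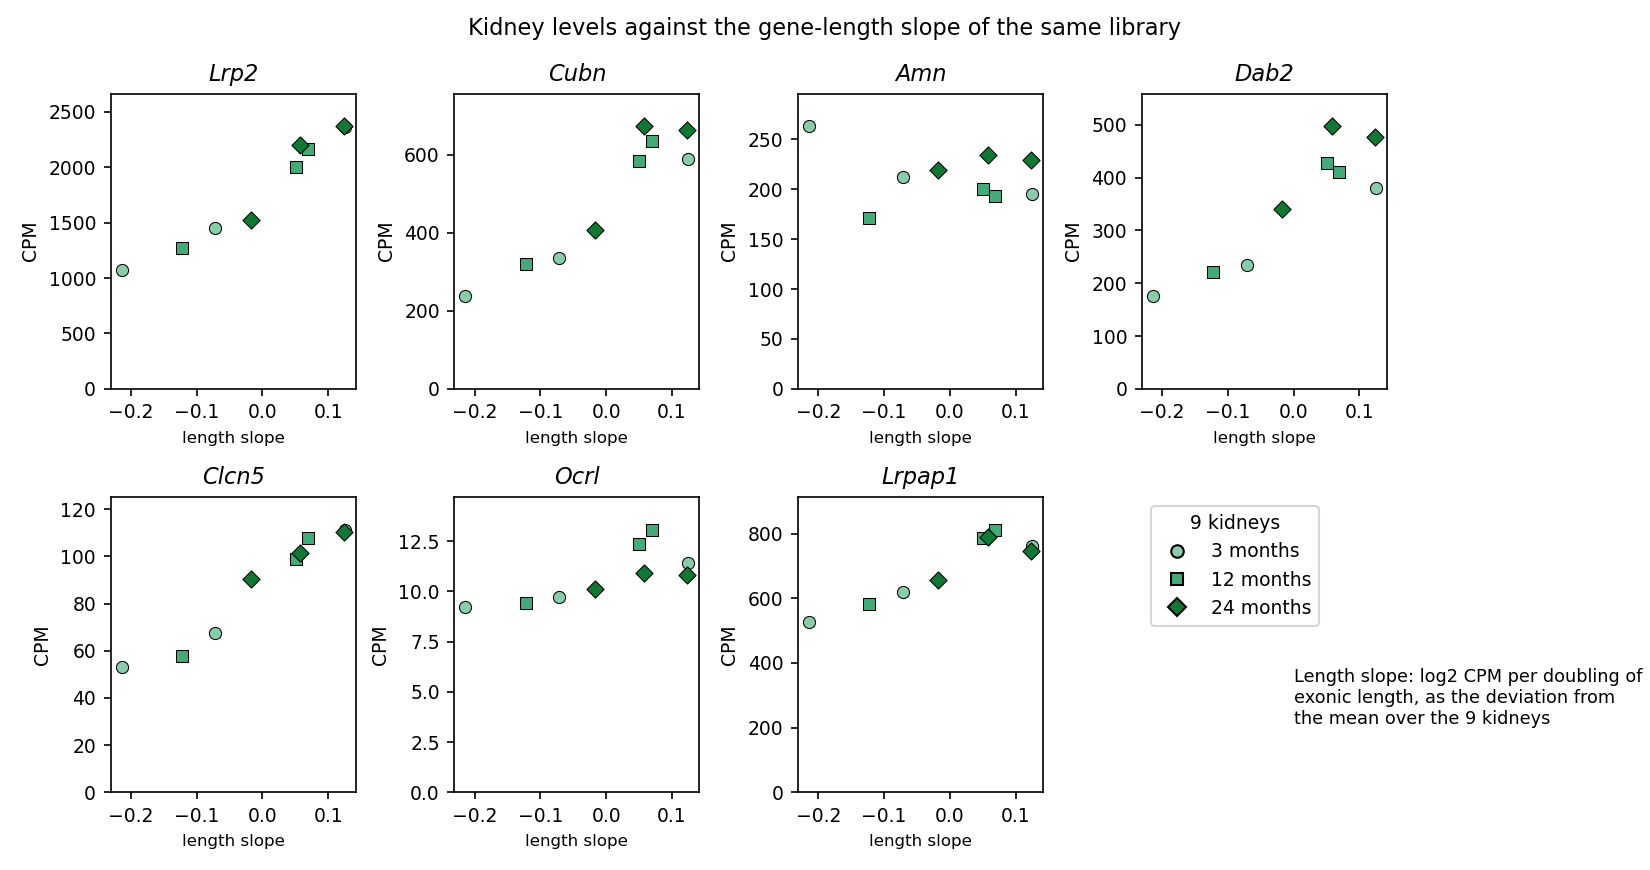
CPM of each endocytic receptor gene (vertical axis) against the gene-length slope of the same kidney library (horizontal axis, log2 CPM per doubling of exonic length relative to the mean of the 9 kidneys), with symbols for age. Over the 9 kidneys the 6 genes other than Amn go up with the slope, with r of log2 CPM from 0.778 (Ocrl) to 0.985 (Lrp2).

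The last comparison set the non-senescent cultures beside 3-month-old kidneys, with all 7 libraries scaled together. Material, culture and library set differ together here and cannot be told apart. All 7 genes were called, 5 lower and 2 higher in culture, where 65.6% of 16190 tested genes were called, 32.6% lower and 33.0% higher. The members' median log2 fold change was -2.56, and that of all tested genes 0.05.

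The receptors and the chaperone were far lower in culture. Cubn was at 14.2 ± 13.5 CPM (SD, n = 4) in PTEC and 484 ± 229 CPM (n = 3) in kidney, 34.1-fold lower (log2 fold change -5.09 ± 0.637 SE, adjusted p = 3.72e-05). Lrpap1 was at 44.9 ± 7.85 and 792 ± 155 CPM, 17.6-fold lower (-4.14 ± 0.267, adjusted p = 3.07e-07). Lrp2 was at 167 ± 181 and 2030 ± 848 CPM, 12.2-fold lower (-3.61 ± 0.672, adjusted p = 0.000662). Without non-senescent culture 4 the log2 fold changes were -4.72 for Lrp2 and -6.00 for Cubn. Even the culture with the most Lrp2, at 438 CPM, lay below the lowest kidney, at 1330 CPM.

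Amn and Dab2 were reduced less. Amn was at 47.1 ± 28.3 CPM in PTEC and 278 ± 42.9 CPM in kidney, 5.90-fold lower (log2 fold change -2.56 ± 0.408 SE, adjusted p = 0.000217). Dab2 was at 163 ± 23.6 and 329 ± 134 CPM, 2.01-fold lower (-1.01 ± 0.284, adjusted p = 0.00857), and the log2 fold change shrank to -0.64 without kidney 2 of 3 months (adjusted p = 0.0387). For these 5 genes no culture reached the lowest kidney. The share of all tested genes separated in this way, here or for Ocrl below, was not computed.

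The endosomal genes were higher in culture. Ocrl was at 37.0 ± 11.2 CPM in PTEC and 12.6 ± 1.54 CPM in kidney, 2.94-fold higher and without overlap (log2 fold change 1.56 ± 0.289 SE, adjusted p = 0.000643). Clcn5 was at 252 ± 81.6 and 96.4 ± 38.6 CPM, 2.61-fold higher (1.39 ± 0.358, adjusted p = 0.00527), although the groups overlapped. With the length trend removed both were still called, at 1.02 and 0.79. The non-senescent cultures enter both this comparison and the one with senescent PTEC, so the folds are given side by side only: Amn -2.56 and -4.44, Dab2 -1.01 and -1.25, Lrpap1 -4.14 and 0.83.

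Among the further lists, to be read beside the 33.0% of all tested genes called higher and 32.6% called lower, of 15 clathrin coat and adaptor genes 7 were called higher and 1 lower in culture (median 0.36, from Ap2b1 at 1.75 to Cltb at -0.96), although 4 were called higher without kidney 1 or without kidney 3 of 3 months. The lower calls were 2 without that kidney 3 or without non-senescent culture 4, and 3 without non-senescent culture 3. Of 16 vesicle acidification genes 9 were lower and 1 higher (median -0.67, from Atp6v0a1 at 1.27 to Atp6v1f at -2.19). At a threshold of 1, 3 clathrin coat and adaptor genes were higher and 4 vesicle acidification genes lower. Of 17 endosome sorting genes 3 were higher and 5 lower (median -0.11, from Appl1 at 1.33 to Rab38 at -3.99). Rab38 was at 1.72 CPM in PTEC and 27.3 CPM in kidney. Of the relatives of megalin named above, Lrp8 was at 66.9 CPM in PTEC and 1.33 CPM in kidney (log2 fold change 5.65), and Lrp4 was at 4.75 and 27.9 CPM (-2.55). All 16 proximal tubule markers were lower in culture, among them Aqp1 at 23.6 against 1698 CPM and Slc7a13 at 0.0351 against 1601 CPM.

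The genes whose pattern was most like that of Lrp2 were sought among those tested genes that averaged 10 CPM or more, by Pearson's r of log2 CPM. Over the 8 cultures these were L1cam (r = 0.967), Igf2r (0.957), Adamts9 (0.956), Piezo1 (0.952) and Tep1 (0.950) of 9805 genes, with Cubn at rank 843 (0.651). With the group means removed, r over the 8 cultures was 0.953 for Lrp2 and Cubn and 0.848 for Lrp2 and Dab2. For Lrp2 it was 0.590 with Lrpap1, 0.548 with Ocrl, 0.525 with Clcn5 and -0.18 with Amn. Non-senescent culture 4 was the highest in both Lrp2 and Cubn, and its part in these values was not tested. Over the 9 kidneys they were Bmpr2 (0.995), Fgfr4 (0.993), Ppm1l (0.993), Arrb1 (0.993) and Dst (0.993) of 8768 genes, with Cubn at rank 84 (0.980) and Amn at rank 5386 (-0.17). The exonic length was above 7 kb for all 5 genes in culture, and for all but Fgfr4 (3542 bases) in kidney. These likenesses are a description. The libraries differ in depth and in gene-length slope, whose part in them was not tested.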

How the data were processed

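Total RNA of 8 PTEC cultures and 9 kidneys was sequenced by the authors after mRNA enrichment. The paper's supplement describes stranded poly(A) libraries with paired reads of 76 bases for a pool of 9 libraries, without naming them. It gives nf-core/rnaseq 1.4.2 on GRCm38 and GENCODE M18 for processing. The deposited files hold raw counts per gene, with 53715 gene IDs in PTEC, 54146 at 3 months and 55401 at 12 and 24 months. Whether all were made against the same annotation release is not given in the sources used here. The counter and its strand setting are not given in the sources used here. Symbols, loci and exonic lengths were taken from GENCODE M21, and promoters from RefSeq. Depth bounds the precision of low counts only, since every receptor gene had counts in each library.

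Genes passing filterByExpr were tested with edgeR 4.0.16 (TMM scaling, robust quasi-likelihood fit, Benjamini-Hochberg adjustment) in R 4.3.3, with separate fits for PTEC, for all kidneys, and for non-senescent PTEC with 3-month-old kidneys. Calls required an adjusted p below 0.05 and a log2 fold change beyond 0.5 in either direction. CPM were TMM-scaled within each fit, so levels of different fits are not on 1 scale. SE was the absolute log2 fold change divided by the root of F. Single correlations were tested by exact two-sided permutation, which takes the kidneys as independent of each other. PTEC replicate numbers come from the labels, which name no shared mouse, and same-numbered cultures deviated together (r = 0.284, 0.382, 0.614 and 0.186), each culture best with its own number. Of the kidneys, only same-numbered ones of 12 and 24 months did (r = 0.384, 0.557 and 0.172). P-values measure the spread between these samples, which may be technical.

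Alternatives were DESeq2 1.42.0 with the study's settings, its size factors in edgeR, no low-count filter, a replicate block, the compared ages alone, each library left out, a threshold of 1, and, chosen after seeing the data, a length offset per library and a block with the 12- and 24-month-old kidneys alone. On simulated PTEC counts (15248 genes) 37 of 99 changes of log2 1 and 92 of 100 of log2 2 were recovered with 4 false calls, and for 24- against 3-month-old kidneys (16295 genes) 26 of 97 and 84 of 98 with 14. Both simulations drew independent noise for each gene and library, and the kidney one held only the kidneys of these ages. Its rates are therefore not those of the fit to all kidneys. By rule, all members, the highest and lowest log2 fold change of each list whose calls are given and the 5 genes most like Lrp2 were named; the other called list genes, Lrp1, Lrp4, Lrp8, Cltc, Slc34a1, Aqp1 and Slc7a13 were chosen after their values were seen. One item, and the counts of the list that holds it, are not reported here. The members and lists were chosen with earlier results of these data known.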

Additional observations from a re-analysis of the deposited data

Results flagged for a closer look

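In 4 of 14 groups of 4 cultures tested, 1 culture lay farther from the others than Dixon's 95% limit allows, where chance alone flags about 1 group in 20. Lrp2 was at 539 CPM in non-senescent PTEC culture 4, against 65.5 to 105 CPM in the other 3. Cubn was at 42.3 CPM in that same culture, against 7.26 to 11.3 CPM. Clcn5 was at 159 CPM in non-senescent culture 3, against 345 to 356 CPM. Amn was at 4.67 CPM in senescent culture 3, against 1.73 to 2.09 CPM.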

How the results depend on the processing

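Amn and Dab2 were called lower in senescent PTEC under every alternative run, as were all 7 genes between culture and kidney in their directions, and no alternative gave a call in kidneys. The number called higher in PTEC was 1 to 2 over the left-out cultures and 0 at a threshold of 1. Cubn was called with the replicate block (log2 fold change -0.85) and with the length offset, and Lrp2 without non-senescent culture 4; the block changed no other call of the 7 genes. Directions turned only in uncalled values: Ocrl at 24 against 3 months (-0.090, length offset), and at 24 against 12 months Lrp2 (-0.0074, length offset) and Lrpap1 (-0.0082 without a filter, -0.0047 with the length offset). Over left-out libraries Lrp2 ranged from -0.12 to 1.33 in PTEC, Amn from -0.054 to 0.16 at 24 against 3 months, Lrp2 from -0.073 to 0.53 and Clcn5 from -0.023 to 0.55 at 12 against 3 months, and Lrp2 from -0.039 to 0.33, Cubn from -0.069 to 0.38, Clcn5 from -0.037 to 0.37 and Lrpap1 from -0.13 to 0.10 at 24 against 12 months. The cause was not tested.

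Counts over all genes at the 3 ages moved more. With DESeq2 and the study's settings 1035, 1107 and 779 genes were called at 24 against 3, 12 against 3 and 24 against 12 months, against 399, 441 and 227. With the compared ages alone there were 265, 64 and 187, with the replicate block 126, 118 and 0, and over left-out kidneys 74 to 794, 52 to 716 and 1 to 63. Same-numbered kidneys of 3 months share only a number with those of 12 and 24 months (r from -0.70 to -0.03). Those of 12 and 24 months deviated together (r from 0.17 to 0.56), and with these ages alone the block gave 2200 calls.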
